A study of Mus musculus with 4 samples.

Results

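The mouse mitochondrial genome encodes 6 subunits of complexes III, IV and V of oxidative phosphorylation: cytochrome b (mt-Cytb), the cytochrome c oxidase subunits mt-Co1, mt-Co2 and mt-Co3, and the ATP synthase subunits mt-Atp6 and mt-Atp8. These 6 genes were taken by symbol from the Ensembl gene identifiers of the deposited tables, and all 6 were present among the 8699 genes listed in each of the 4 tables. The libraries were made from total RNA of spermatozoa pressed out of the cauda epididymis of adult male C57BL/6J mice of approximately 11 weeks, and 2 libraries came from saline-treated and 2 from nicotine-treated mice. The sources used here give no dose, route or duration of nicotine, no number of mice per library and no step to remove somatic cells. They also do not say whether the 2 libraries within a group stem from different mice, and the spread that the p-values measure may therefore be technical.

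Mitochondrial DNA is transcribed into long precursors that are cut, mostly at the transfer RNAs that lie between the coding regions, into separate messenger RNAs. Complexes III and IV pass electrons from ubiquinol through cytochrome c to oxygen and pump protons, and complex V uses the resulting gradient to make ATP. Each of these complexes also needs many subunits encoded in the nucleus. In sperm the mitochondria are wrapped around the midpiece of the flagellum.

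On the mitochondrial chromosome the coding genes followed the order mt-Co1, mt-Co2, mt-Atp8, mt-Atp6, mt-Co3 on the plus strand, with mt-Cytb farther along on the same strand. The lengths in the deposited tables equalled the GENCODE M21 transcripts of the GRCm38 assembly for all 6 genes, from which the following sequences were read. The mt-Atp8 and mt-Atp6 reading frames overlap, and they are printed because a read in the shared stretch cannot be assigned to either gene from its sequence. Capitals mark the 43 shared bases, which are the end of mt-Atp8 and the start of mt-Atp6.
mt-Atp8, whole: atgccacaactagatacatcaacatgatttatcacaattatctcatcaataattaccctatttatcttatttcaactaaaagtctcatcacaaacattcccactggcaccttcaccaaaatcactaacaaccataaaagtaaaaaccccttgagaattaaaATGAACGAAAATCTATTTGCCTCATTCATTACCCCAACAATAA
mt-Atp6, the first 90 bases: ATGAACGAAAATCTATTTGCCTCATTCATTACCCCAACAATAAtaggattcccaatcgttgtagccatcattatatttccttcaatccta
The shared stretch made up 21.1% of the 204 bases of mt-Atp8 and 6.31% of the 681 bases of mt-Atp6, which left 161 bases of mt-Atp8 alone.

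The ends of the genes also differed in form. The last 30 bases of 4 genes are printed to show this, with the bases of the stop codon, whole or incomplete, in capitals.
mt-Co1: gaggaaccaacctatgtaaaagtaaaaTAA
mt-Co2: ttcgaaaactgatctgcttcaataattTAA
mt-Co3: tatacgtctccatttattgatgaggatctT
mt-Cytb: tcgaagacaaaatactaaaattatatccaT
The 1545 bases of mt-Co1, the 684 of mt-Co2, the 681 of mt-Atp6 and the 204 of mt-Atp8 were whole codons closed by TAA. The 784 bases of mt-Co3 and the 1144 of mt-Cytb ended in a single T, and in such messages the poly(A) tail completes the stop codon. The GC content was lowest in mt-Atp8 (31.9%) and mt-Atp6 (36.0%) and lay between 38.6% and 39.9% in the others.

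Mouse nuclear chromosomes carry copies of mitochondrial DNA, and all 6 genes matched annotated nuclear transcripts. Identical runs of 681 bases joined mt-Co2 to Gm28661, of 783 bases mt-Co3 to Gm28437 and of 678 bases mt-Atp6 to Gm10925, all on chromosome 1. The longest identical run was 479 bases for mt-Co1 (Gm29216, chromosome 1), 47 bases for mt-Cytb (Gm11410, chromosome 4) and 43 bases for mt-Atp8, the stretch that it shares with mt-Atp6. None of these nuclear copies was among the genes listed, and the sources used here do not state how reads that match more than 1 place were counted. Among the other nuclear genes that mt-Co1 matched, 1 was listed, Cep295, with a longest identical run of 22 bases. Gm13340 on chromosome 2 matched the whole of mt-Co1 at 97.6% identity. The values of mt-Co1, mt-Co2, mt-Co3 and mt-Atp6, and the ratios built on them, are therefore uncertain as to how such reads were split.

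The tables held between 3798794 and 5216745 reads on genes per library. Lars2 and Gm42418 together took 74.9% and 75.8% of the saline reads and 90.6% and 77.5% of the nicotine reads, replicate 1 before replicate 2. Outside that pair the libraries held 1002360, 931578, 358477 and 1176304 reads in the same order. Nicotine replicate 1 stood apart, with 317 genes at 0 against 2 to 13 in the others, so results are also given without it.

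The cytochrome c oxidase genes were the most abundant of the 6. Their levels are given as deposited RPKM (reads scaled by gene length and by the reads of the library). mt-Co1, which encodes the subunit that holds the oxygen-reducing centre, reached 9648 and 9327 RPKM in the saline libraries and 5318 and 7828 in the nicotine libraries. It had rank 3 among all listed genes in every library, with 31211 to 63089 reads. mt-Co2, whose subunit takes electrons from cytochrome c, stood at 2869 and 3235 RPKM with saline and 2659 and 5200 with nicotine. Its nicotine libraries enclosed both saline libraries. mt-Co3, a core subunit with no redox centre, stood at 4400 and 4709 RPKM with saline and 2595 and 4718 with nicotine. For mt-Co3 nicotine replicate 2 was at the level of saline replicate 2, and nicotine replicate 1 was the lowest.

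mt-Cytb, the only complex III subunit encoded in mitochondria, stood at 2133 and 1770 RPKM in the saline libraries and 1210 and 2763 in the nicotine libraries. mt-Atp6, the ATP synthase subunit that forms the proton path with the c-ring, stood at 1696 and 1645 RPKM with saline and 1371 and 2968 with nicotine. In both genes nicotine replicate 1 was lowest and nicotine replicate 2 highest. mt-Atp8, a small membrane subunit of the same enzyme, stood at 63.7 and 139 RPKM with saline and 96.8 and 158 with nicotine. It rested on 52, 109, 75 and 168 reads and was the least abundant of the 13 mitochondrial messenger RNAs in every library. On this scale, which divides by all reads on genes, the groups overlapped for all but 1 of the genes: for mt-Co1 both nicotine libraries were below both saline libraries. The share of all genes that were lower in this way was not counted. When counts were scaled to total reads on genes, the median tested gene had a log2 fold change of -1.28, nicotine over saline.

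**Figure D1:**
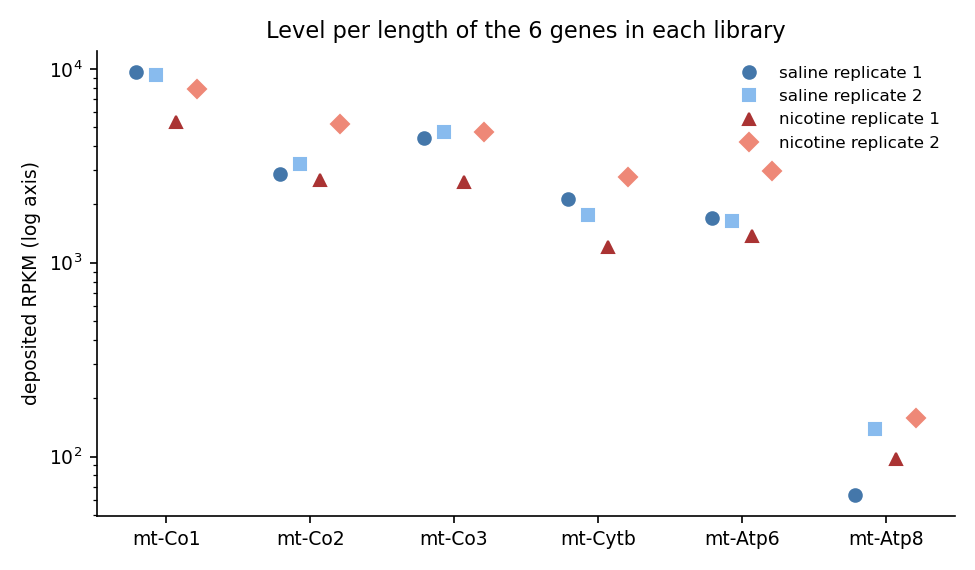
Deposited RPKM (vertical log axis) of each of the 6 genes (horizontal axis), 1 point per library. mt-Co1 lies highest, between 5318 and 9648, and mt-Atp8 lowest, between 63.7 and 158; the nicotine replicate 1 point is the lowest for 5 of the 6 genes.

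The order of the genes inside a library was the same in both libraries of a group and differed between the groups at 2 places. With saline the order by RPKM was mt-Co1, mt-Co3, mt-Co2, mt-Cytb, mt-Atp6, mt-Atp8, and with nicotine it was mt-Co1, mt-Co2, mt-Co3, mt-Atp6, mt-Cytb, mt-Atp8. The RPKM of mt-Co2 was 0.652 and 0.687 times that of mt-Co3 in the saline libraries and 1.02 and 1.10 times in the nicotine libraries. In nicotine replicate 1 the 95% Clopper-Pearson interval of this ratio, 0.992 to 1.06, included equality, so these neighbours did not differ there beyond counting error. The RPKM of mt-Cytb was 1.26 and 1.08 times that of mt-Atp6 with saline and 0.883 and 0.931 times with nicotine. No interval of that ratio included equality. Intervals cover counting error only, since reads without molecular identifiers are not independent molecules. These neighbour pairs were picked after the levels were seen and were not tested.

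Inside the reads of the 6 genes, mt-Co1 held a smaller part, and mt-Co2 and mt-Atp6 larger parts, in the nicotine libraries. mt-Co1 made up 62.3% and 61.3% of them with saline and 57.0% and 49.2% with nicotine. mt-Co2 made up 8.20% and 9.42% with saline and 12.6% and 14.5% with nicotine. mt-Atp6 made up 4.83% and 4.77% with saline and 6.48% and 8.23% with nicotine. The groups did not overlap for these genes (exact permutation p = 0.333 each, the smallest that 2 against 2 libraries can give). The parts have a fixed total, so a smaller mt-Co1 part makes the sum of the others larger. mt-Co3 held 14.4% and 15.7% with saline against 14.1% and 15.1% with nicotine, and mt-Cytb 10.2% and 8.62% against 9.61% and 12.9%. Both of these overlapped. mt-Atp8 held 0.0543% and 0.120% with saline and 0.137% and 0.131% with nicotine, also without overlap.

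**Figure D2:**
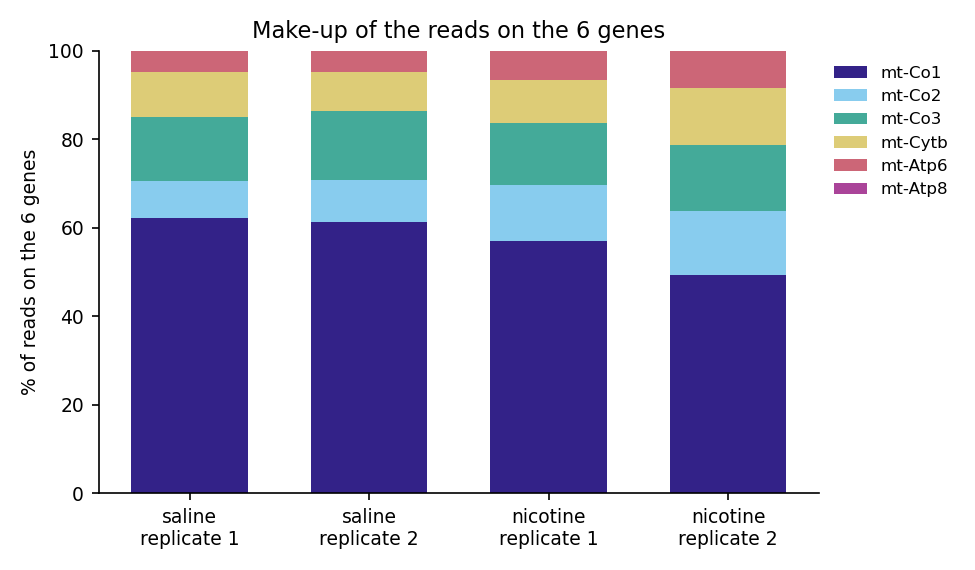
Stacked bars give the percentage of the reads on the 6 genes (vertical axis) that fell on each gene, 1 bar per library. The mt-Co1 part is 62.3% and 61.3% in the saline libraries and 57.0% and 49.2% in the nicotine libraries, while the mt-Co2 part is 12.6% and 14.5% with nicotine against 8.20% and 9.42% with saline.

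Ratios inside a library do not depend on how libraries are scaled to each other. The RPKM ratio of mt-Co2 to mt-Co1 was 0.297 and 0.347 with saline and 0.500 and 0.664 with nicotine, a difference of 0.84 in mean log2 ratio. The ratio of mt-Atp6 to mt-Co1 was 0.176 in both saline libraries and 0.258 and 0.379 with nicotine, a log2 difference of 0.83. In both ratios the nicotine libraries lay above the saline libraries by more than the gap within the saline group. The gap within the nicotine group was wider, at 0.41 against 0.22 in log2 for mt-Co2 and 0.557 against 0.0056 for mt-Atp6. For mt-Atp6 the distance between the groups did not exceed the gap within the nicotine group. The ratio of mt-Cytb to mt-Co1 was 0.221 and 0.190 with saline and 0.228 and 0.353 with nicotine, a log2 difference of 0.47 with the groups barely apart. The ratio of mt-Co3 to mt-Co1 was 0.456 and 0.505 with saline and 0.488 and 0.603 with nicotine, and these overlapped. When 1 library was left out, the log2 difference ran from 0.15 (without nicotine replicate 2) to 0.78 (without nicotine replicate 1) for mt-Cytb, and from 0.55 to 1.11 for mt-Atp6 with the same libraries left out.

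mt-Atp8 shares its messenger RNA with mt-Atp6, and their ratio differed more between the saline replicates than between the groups. Per 100 mt-Atp6 reads there were 1.13 (95% Clopper-Pearson interval 0.840 to 1.48) and 2.52 (2.07 to 3.05) mt-Atp8 reads with saline, and 2.12 (1.66 to 2.66) and 1.59 (1.36 to 1.86) in the nicotine libraries. The saline intervals did not overlap each other, and both nicotine values lay between the saline values. By RPKM mt-Atp8 was 0.0376, 0.0842, 0.0706 and 0.0532 times mt-Atp6 in the order saline 1, saline 2, nicotine 1, nicotine 2. Against mt-Co1 the mt-Atp8 ratio was 0.0066 and 0.0149 with saline and 0.0182 and 0.0202 with nicotine, a log2 difference of 0.95 that was 0.37 without saline replicate 1 and 1.54 without saline replicate 2.

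With 2 libraries against 2, the smallest two-sided p of an exact permutation test is 0.333, so none of the 6 ratios could pass a threshold of 0.05. That value was reached for mt-Co2, mt-Cytb, mt-Atp6 and mt-Atp8 over mt-Co1 (exact permutation p = 0.333 each, 0.5 after Benjamini-Hochberg adjustment over 6 ratios). For mt-Co3 over mt-Co1 the exact permutation p was 0.667 and for mt-Atp8 over mt-Atp6 it was 1. Over all other tested genes, 13.5% had a ratio of reads to mt-Co1 that was higher in both nicotine libraries than in both saline libraries. Of the other 5 genes studied here, all but mt-Co3 had one. The trait was not particular to them. The 7 complex I subunits encoded in mitochondria together had 22928 and 20603 reads with saline and 14431 and 46916 with nicotine. On mt-Co1 there were 59618 and 55568 with saline and 31211 and 63089 with nicotine. The complex I sum over mt-Co1 was thus also higher in both nicotine libraries. All these ratios share mt-Co1 as reference, and which side of them differed was not tested.

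**Figure D3:**
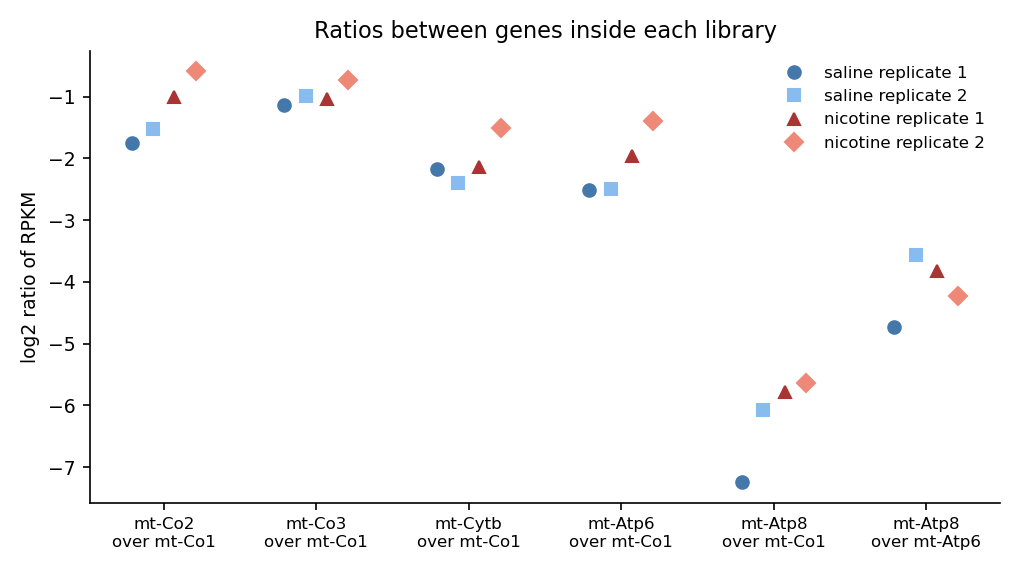
Log2 ratios of RPKM inside each library (vertical axis) for 5 genes over mt-Co1 and for mt-Atp8 over mt-Atp6 (horizontal axis), 1 point per library. The nicotine points lie above the saline points in 4 of the 6 ratios, and the mt-Atp8 over mt-Atp6 points of the nicotine libraries lie between the saline points.

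In the comparison of nicotine with saline over all genes, all 6 genes had positive fold changes and none passed the test. The counts were scaled by TMM (trimmed mean of M values), expressed as CPM (counts scaled to library size) and fitted with edgeR's quasi-likelihood test over 8375 genes. The edgeR fit called 8.27% of tested genes higher and 0.931% lower with nicotine at an adjusted p under 0.05, and 0 of the 6 genes in either direction. At an unadjusted p under 0.05 the same fit gave 3 of the 6 genes as higher, mt-Co2, mt-Atp6 and mt-Atp8, against 16.6% of all tested genes. In this bulk RNA, a change in the number of cells of a type and a change in RNA per cell cannot be told apart.

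The spread behind these folds came mostly from the nicotine libraries, except in mt-Atp8, where the saline libraries lay as far apart in proportion. mt-Co1 stood at 8876 and 8754 CPM with saline and 25331 and 10881 with nicotine, a log2 fold change of 1.04 ± 0.84 (SE; edgeR adjusted p = 0.495). mt-Co2 stood at 1168 and 1344 CPM with saline and 5607 and 3200 with nicotine, a log2 fold change of 1.81 ± 0.67 (edgeR adjusted p = 0.123). mt-Co3 stood at 2054 and 2243 CPM with saline and 6272 and 3328 with nicotine, a log2 fold change of 1.16 ± 0.68 (edgeR adjusted p = 0.332). In these oxidase genes nicotine replicate 1 had the highest value and the saline libraries were close to each other.

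In the complex III and V genes nicotine replicate 1 was again the highest. mt-Cytb stood at 1453 and 1230 CPM with saline and 4269 and 2844 with nicotine, a log2 fold change of 1.41 ± 0.64 (edgeR adjusted p = 0.212). mt-Atp6 stood at 688 and 681 CPM with saline and 2878 and 1818 with nicotine, a log2 fold change of 1.78 ± 0.61 (edgeR adjusted p = 0.0983). mt-Atp8 stood at 7.74 and 17.2 CPM with saline and 60.9 and 29.0 with nicotine, a log2 fold change of 1.82 ± 0.58 (edgeR adjusted p = 0.0780). Both nicotine libraries exceeded both saline libraries in CPM for 6 of the 6 genes, against 27.4% of all tested genes, and nicotine replicate 1 exceeded nicotine replicate 2 in all 6. Without nicotine replicate 1 the log2 fold change was 0.32 for mt-Co1 and 0.65 for mt-Co3. It then ranged from 1.10 to 1.43 for the other 4. Without nicotine replicate 2 it ran from 1.59 for mt-Co1 to 2.35 for mt-Atp8. Without saline replicate 1 it ran from 1.02 for mt-Co1 to 1.76 for mt-Atp6, and without saline replicate 2 from 1.00 for mt-Co1 to 2.49 for mt-Atp8. Each of these fits rests on 1 library in 1 of the groups.

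The direction of the folds depended on the scaling. The TMM factors were 1.68 and 1.65 for the saline libraries and 0.325 and 1.11 for the nicotine libraries, and the median gene had a log2 fold change of -0.14. Scaled to total reads on genes, mt-Co1 turned to -0.53 and mt-Co3 to -0.32, the other 4 ranged from 0.03 to 0.38, and the median gene was at -1.28. Scaled to reads on sperm marker genes, an alternative chosen after the data were seen, all 6 were negative, from -1.35 for mt-Co1 to -0.55 for mt-Co2, beside a median gene of -2.34, and mt-Co1 and mt-Co3 were called lower (edgeR adjusted p = 0.0309 and 0.0364), as were 73.9% of all tested genes. Relative to the median gene, every one of the 6 was positive in all 13 fits, from 0.35 for mt-Co1 at the lowest to 2.59 for mt-Atp8 at the highest. The fits reuse the same libraries, and a change of scaling moves a gene and the median together. These signs therefore do not add separate support, and the share of all tested genes positive in all 13 fits was not counted. DESeq2 called 4 of the 6 higher, namely mt-Co2, mt-Cytb, mt-Atp6 and mt-Atp8, against 10.8% of all tested genes, and limma-voom called mt-Co2 and mt-Atp6, against 9.15%.

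**Figure D4:**
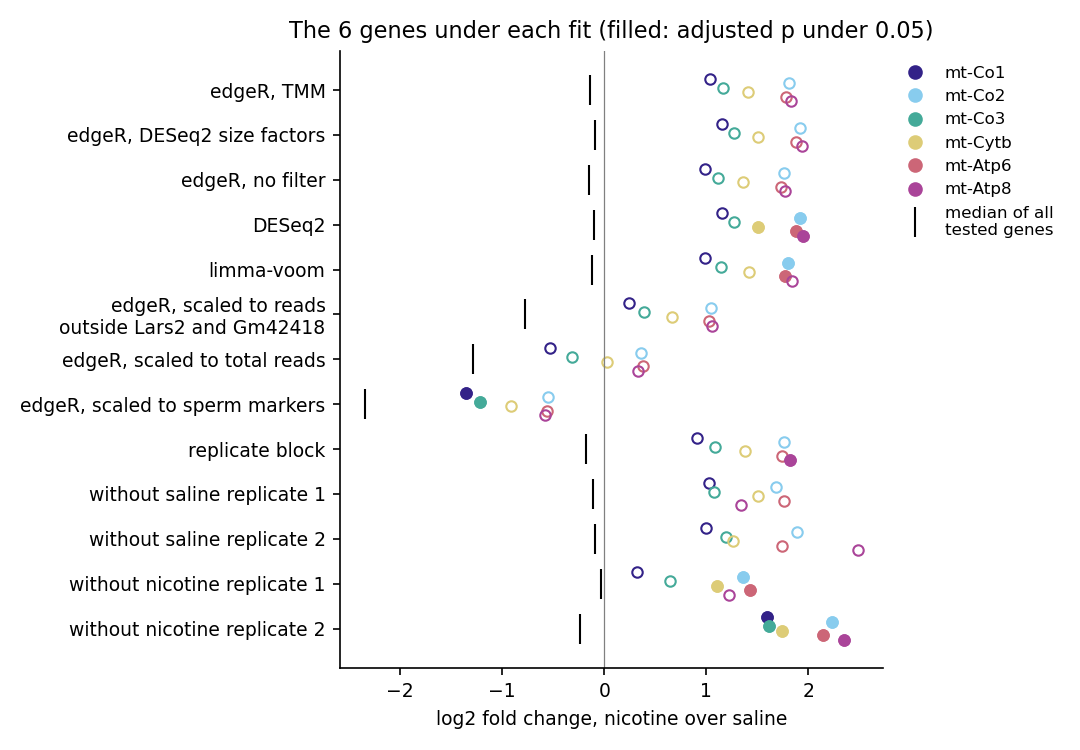
Log2 fold change of nicotine over saline (horizontal axis) for the 6 genes under each of 13 fits (rows); filled points have an adjusted p under 0.05 and the black tick is the median of all tested genes. All 6 genes lie to the right of the tick in every row, and to the left of 0 when libraries are scaled to sperm markers. The rows reuse the same libraries, and a change of scaling moves the genes and the tick together.

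Together the 6 genes took 2.39% and 2.35% of all reads on genes in the saline libraries and 1.44% and 2.46% in the nicotine libraries, which overlapped (exact permutation p = 1). Of reads outside Lars2 and Gm42418 they took 9.55% (95% Clopper-Pearson interval 9.49 to 9.60) and 9.72% (9.66 to 9.78) with saline, and 15.3% (15.1 to 15.4) and 10.9% (10.8 to 10.9) with nicotine. The second share was higher by 3.45 percentage points on average (exact permutation p = 0.333), and by 1.26 without nicotine replicate 1 or 5.63 without nicotine replicate 2. By the second share mt-Co1 stood at 5.95% and 5.96% with saline and 8.71% and 5.36% with nicotine, so its groups overlapped, while those of the other 5 did not, against 16.8% of all tested genes that were higher without overlap on that scale.

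Set against the other mitochondrial messages, the 6 genes made up 80.7% and 81.5% of the reads on the 13 mitochondrial messenger RNAs with saline and 79.1% and 73.2% with nicotine. The rest fell on the 7 complex I subunits, which took 2.29% and 2.21% of reads outside Lars2 and Gm42418 with saline and 4.03% and 3.99% with nicotine. None of the 7 passed the edgeR test over all genes, and their median log2 fold change was 1.56, with mt-Nd1 the most abundant. With edgeR scaled to the reads on these 13 messages, the log2 fold change was -0.30 ± 0.29 (SE) for mt-Co1 (adjusted p = 0.408), 0.53 ± 0.32 for mt-Co2 (adjusted p = 0.237) and 0.52 ± 0.34 for mt-Atp6 (adjusted p = 0.261). mt-Co3 stood at -0.14, mt-Cytb at 0.16 and mt-Atp8 at 0.53. The 6 genes hold most of the reads used for this scaling, so their folds as a set are held near 0 by construction. None of the 6 was called, nor was any other gene (0% of 8375 higher and 0% lower, with 2836 genes and none of the 6 at an unadjusted p under 0.05). Over all genes this count rested on both nicotine libraries: without replicate 1 the fit called 321 higher and 1704 lower, and without replicate 2 it called 413 higher and 4959 lower. Without saline replicate 1 or 2 it called 24 or 30 lower.

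The nuclear-encoded partners of the 6 genes in the same complexes did not pass the test. Of 46 such subunits, 40 were listed and tested with edgeR: all 9 of complex III, 13 of 19 of complex IV and all 18 of complex V. Of these, 0 were called higher and 0 lower, 0 had an unadjusted p under 0.05, and DESeq2 and limma-voom also called 0. Their median log2 fold change was -0.18, beside -0.14 for all tested genes and 1.59 for the 6 mitochondrial genes. By complex the medians were 0.10 for III, 0.06 for IV and -0.23 for V. The difference between the mitochondrial and nuclear subunits was not tested.

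The most abundant nuclear subunits stood below 5 of the 6 mitochondrial genes in RPKM in every library. Cox8a, an oxidase subunit, stood at 74.8 and 73.8 RPKM with saline and 7.25 and 39.0 with nicotine. Cox4i1, a regulatory oxidase subunit, stood at 37.1 and 48.5 RPKM with saline and 8.49 and 33.3 with nicotine. Cox8a exceeded mt-Atp8 (63.7 RPKM) in saline replicate 1. Atp5l, a membrane subunit of ATP synthase, averaged 28.7 RPKM and Atp5a1, a subunit of its catalytic head, 21.6 RPKM. In complex III, Uqcr11 averaged 17.4 RPKM and Uqcrh, the hinge subunit, 17.2 RPKM. For every read on the 40 nuclear subunits there were 24.3 and 23.8 reads on the 6 mitochondrial genes with saline, and 110 and 35.0 with nicotine. In nicotine replicate 1 that ratio rested on 497 nuclear reads, against 3660 to 3936 in the other libraries.

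**Figure D5:**
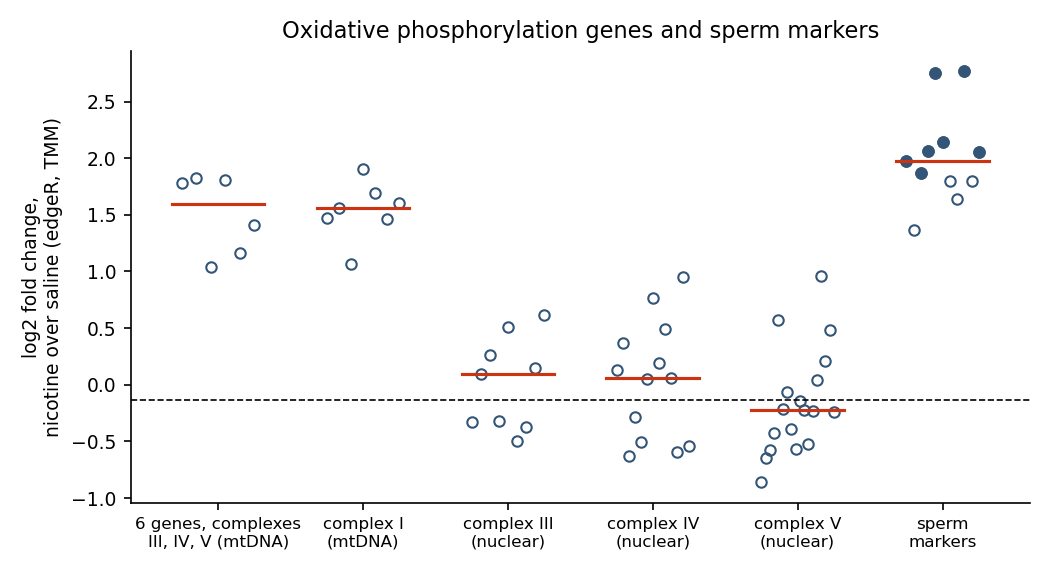
Log2 fold change of nicotine over saline from edgeR with TMM (vertical axis) for each tested gene of 6 groups; filled points have an adjusted p under 0.05, red lines are group medians and the dashed line is the median of all tested genes. Medians are 1.59 for the 6 mitochondrial genes and 1.56 for mitochondrial complex I, against 0.10, 0.06 and -0.23 for nuclear complexes III, IV and V and 1.97 for sperm markers.

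Factors that assemble the complexes or handle the mitochondrial messages mostly did not pass the test. Of 32 assembly factors of complexes III, IV and V, 13 were listed, 1 was called higher and 0 lower, a share close to the 8.27% called higher among all tested genes. The called gene was Uqcc2, a factor for the synthesis and assembly of cytochrome b, with 31 and 38 reads under saline and 34 and 91 under nicotine. Its log2 fold change was 1.98 ± 0.52 (SE; edgeR adjusted p = 0.0403), and its CPM was 4.62 and 5.99 with saline against 27.6 and 15.7 with nicotine. The call for Uqcc2 was lost when scaled to total reads or to reads outside Lars2 and Gm42418, where 0 of 8375 tested genes were called higher. It was also lost without saline replicate 1 or 2, as were most calls over all genes. The log2 fold change of Uqcc2 was then 1.80 and 2.17, and it turned to -0.34 when scaled to sperm markers. Cox14, an early assembly factor of the oxidase, stood at 30, 10, 3 and 36 reads. Of 30 factors of mitochondrial transcription, RNA processing and translation, 19 were listed and 15 tested, and edgeR called 0 (1 at an unadjusted p under 0.05, lower). Their median log2 fold change was -0.44; Hsd17b10, a subunit of mitochondrial ribonuclease P, and Ptcd3, a mitochondrial ribosomal protein, were the most abundant. Cycs, somatic cytochrome c, stood at 41, 32, 0 and 36 reads with a log2 fold change of -0.46.

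Among the genes whose pattern over the 4 libraries was most like that of the 6 genes were Odc1, Eif4e2, Stap2 and Cdk16. Likeness was the root mean square difference in centred log2 CPM from the mean of the 6 genes, among 4175 nuclear genes with at least median abundance. It was 0.0499 for Odc1, which encodes ornithine decarboxylase, 0.0632 for Eif4e2, 0.0726 for Stap2 and 0.0763 for Cdk16, against a median of 0.874 over the candidates. Among the 6 themselves it ran from 0.154 for mt-Co2 to 0.380 for mt-Atp8, and it was 0.0753 for the complex I gene mt-Nd1. The nuclear genes were picked for their small difference. The mean profile was -0.82 and -0.63 with saline and 1.16 and 0.29 with nicotine on this scale.

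Markers of sperm and of several somatic cell types were present, at levels that differed between libraries. Sperm markers (11 of 12 listed, Smcp the most abundant) took 1.52% and 1.28% of reads outside Lars2 and Gm42418 with saline and 4.26% and 4.09% with nicotine. Of the 11, edgeR with TMM called 7 higher, against 8.27% of all tested genes. That count changed when 1 library was left out, as did the count over all genes, and each such fit leaves 1 library in a group. Scaled to total reads or to reads outside Lars2 and Gm42418, edgeR called 0 of the 11 higher. It also called 0 of all 8375 tested genes higher under either scaling, so these counts do not set the sperm markers apart. Reads on the 6 genes per sperm marker read, a ratio chosen after the values were seen, were 6.30 and 7.58 with saline and 3.58 and 2.66 with nicotine. Connective tissue, muscle and vessel markers (9 of 11 listed, Acta2 the most abundant) took 2.59% and 1.28% with saline and 0.160% and 0.660% with nicotine. Of the 8 tested, edgeR called 2 lower, Col3a1 and Col1a1, against 0.931% of all tested genes. Lum was at 0 in saline replicate 2 and nicotine replicate 1.

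Leukocyte markers (8 of 12 listed, Lyz2 the most abundant) took 0.0955% and 0.108% with saline and 0.0245% and 0.0286% with nicotine. Of the 8, edgeR called 1 lower, Cd14, against 0.931% of all tested genes. Cd14 and Cd68 were at 0 in nicotine replicate 1. Epididymal epithelium markers (8 of 13 listed, Crisp1 the most abundant) took 0.662% and 2.19% with saline and 0.482% and 1.84% with nicotine, with none called. Erythroid markers (5 of 5 listed, Hbb-bs the most abundant) took 0.192% and 0.112% with saline and 0.0332% and 0.199% with nicotine, with none called. Somatic cells make the same mitochondrial messages, and the part of the cell mix in the values of the 6 genes was not tested. The called genes Col3a1, Col1a1 and Cd14 were named after their values were seen. All 3 calls were lost without saline replicate 1 or 2, as were most calls over all genes.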

How the data were processed

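RNA sequencing of spermatozoa gave 1 table per library, with 2 saline and 2 nicotine libraries grouped by the labelled agent. Each table lists a gene identifier, a length, the authors' deposited estimated count of reads (whole numbers on every gene) and the authors' deposited RPKM, which equals reads scaled by the gene length and the table's read total. The submitters' processing notes name CASAVA, TopHat and the build mm8. The sources used here do not give the counter, the strand setting or the treatment of reads with several matches, so reads from the 2 strands of mitochondrial DNA cannot be told apart. The labels' protocols name Trizol extraction and a TruSeq DNA library kit. The line without a gene (1 per table) held a scaling factor and was left out.

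Symbols were found for 8688 of 8699 identifiers. Counts were fitted with edgeR 4.0.16 in R 4.3.3 (TMM, minimum count 10 in filterByExpr, quasi-likelihood test, Benjamini-Hochberg adjusted p under 0.05), with DESeq2 1.42.0 and limma 3.58.1 as alternatives, after the scripts were tested on simulated data. Ratios and shares were compared with two-sided exact permutation tests (Python 3.11.15). Nuclear copies were sought with blastn 2.17.0 in GENCODE M21 transcripts outside the mitochondrial chromosome (expectation value up to 1e-10). Because mm8 differs from that assembly, no coordinates are given. The text names all 6 genes; of the nuclear lists, called genes (up to 4 by fold change) and the 2 with the highest mean RPKM; of marker lists, the most abundant gene; and the 5 genes most like the 6 in profile, of which 1 is not reported here. The genes and lists were chosen with earlier results of these data known.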

Additional observations from a re-analysis of the deposited data

How the results depend on the processing

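Leaving out 1 library, a scaling or a tool changed the number of the 6 genes called. Of the 6, DESeq2 called 4 higher, limma-voom 2 and the fit with the replicate block 1 (mt-Atp8), against 905, 766 and 1078 of 8375 tested genes; edgeR with DESeq2 size factors, without a filter, or scaled to total reads or to reads outside Lars2 and Gm42418 called 0. Leaving out 1 nicotine library changed the number of the 6 called higher, and leaving out 1 saline library did not. Each such fit leaves 1 library in a group, and the number called over all genes changed as well. Without nicotine replicate 2, where nicotine replicate 1 stands alone, the log2 fold change ran from 1.59 for mt-Co1 to 2.35 for mt-Atp8. Without nicotine replicate 1 it ran from 0.32 for mt-Co1 to 1.43 for mt-Atp6. Scaling to sperm markers, added after the data were seen, called 2 lower, with log2 fold changes of -1.35 for mt-Co1, -0.55 for mt-Co2, -1.21 for mt-Co3, -0.92 for mt-Cytb, -0.56 for mt-Atp6 and -0.58 for mt-Atp8. Scaling to total reads gave -0.53 for mt-Co1 and -0.32 for mt-Co3. Against scaling to mitochondrial messages, TMM turned mt-Co1 to 1.04 and mt-Co3 to 1.16, and mt-Cytb ran from -0.0039 (without nicotine replicate 2) to 0.30 when 1 library was left out. With the replicate block that scaling called 14 genes higher and 477 lower over all genes. Over all genes, 693 were called higher and 78 lower; the counts were 0 and 9 scaled to total reads, 0 and 0 scaled to reads outside Lars2 and Gm42418, 4 and 6185 scaled to sperm markers, 1078 and 279 with the replicate block, and 46 lower with limma-voom. Leaving out 1 library gave 0 to 1515 higher and 9 to 824 lower. Of the nuclear subunits, 37 were called lower when scaled to sperm markers, and leaving out 1 library gave 0 to 1 higher and 0 to 5 lower (1 and 5 without nicotine replicate 2). The log2 difference of mt-Co3 over mt-Co1 became -0.046 with the sum of the 6 genes as reference, and that of mt-Atp8 over mt-Atp6 ran from -0.46 (without saline replicate 1) to 0.71 when 1 library was left out, with -0.08 without nicotine replicate 1. The share of the 6 genes was lower by 0.42 percentage points (-0.42) when taken of all reads. Of 108 alternative values for single genes, 81 kept their direction and side of the threshold, 16 came to pass it and 11 reversed. The causes were not tested beyond what the scaling itself sets. The replicate numbers are not stated to pair libraries. Deviations of the replicate 1 libraries from their group means correlated at 0.173 over 8375 tested genes. With 2 libraries a group the replicate 2 libraries mirror this value, and it does not establish a shared origin. With 2 libraries a group and 358477 reads outside Lars2 and Gm42418 in nicotine replicate 1, small differences were not detectable, and larger ones could also go uncalled. For mt-Atp8 a log2 fold change of 1.82 under TMM did not pass the test (edgeR adjusted p = 0.0780).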
